A study of Mus musculus with 502 samples.

Results

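The 10 heat shock chaperone genes described here were taken by symbol from the 46603 gene rows of a single-cell count table, and all 10 rows were found. They are Hspa1a and Hspa1b, which encode the stress-inducible HSP70 of the cytosol, Hspa8, which encodes its constitutive relative, and Hsp90aa1 and Hsp90ab1, which encode the inducible and the constitutive cytosolic HSP90. The others are Dnajb1 and Dnaja1, whose HSP40 products deliver unfolded proteins to HSP70, Hsph1, which encodes an HSP110 protein that helps HSP70 to exchange its nucleotide, and Hspd1 and Hspe1, which encode the mitochondrial chaperonin HSP60 and its lid HSP10. The rule uses symbols alone, and it was set with earlier results of these data known.

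As background, HSP70 and HSP90 hold heat shock factor 1 inactive in unstressed cells. When unfolded proteins occupy these chaperones, the factor is released, binds repeated GAA units called heat shock elements in front of chaperone genes, and switches on the inducible members within minutes. Hspa1a and Hspa1b have no intron and are hardly transcribed without stress, whereas Hspa8 and Hsp90ab1 are constantly and strongly expressed in most cells. Warm enzymatic dissociation of a tissue is itself known to induce Hspa1a, Hspa1b and immediate early genes such as Fos and Jun.

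The cells were propidium iodide negative, Cd45+ cells, that is leukocytes, sorted from kidneys of young wild type CD1 mice, an outbred stock, and sequenced with SmartSeq2. The kidneys were not perfused, so blood leukocytes were part of what could be sorted, and they were either dissociated fresh or first kept intact and cold in HTS-FRS, a hypothermic preservation solution. All groups went through the same warm enzymatic dissociation, and kidney tissue of 1 mouse was pooled for each timepoint, with less tissue used after 3 and 4 days. Groups take their names from the timepoint and from the tag, such as IM793, that the titles give to a pool of libraries. Pool IM793 held 75 fresh cells, 76 cells after 6 h and 78 cells after 2 days. Pool IM834 held 81 fresh cells, 75 cells after 1 day, 82 after 3 days and 19 after 4 days. Another 14 and 2 cells of 4 days came from pools IM790 and IM793. Each deposited sample is 1 cell and no label names an animal, so each timepoint counts as 1 sample and no test was made. Preserved cells were compared with fresh cells of the same pool, and the fresh cells of the pools with each other show how much these values differed without preservation.

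Totals on genes ran from 1759 to 1895431 reads per cell, with group medians between 417385 and 1128166, and group medians of genes per cell between 1130 and 3378. The lowest medians of both were those of the 4-day cells of pool IM834. Between 79.4% and 95.8% of the cells of each gate defined below had at least 10 reads of Ptprc, the gene of Cd45. Summed reads of 4 kidney epithelium markers (Epcam, Umod, Lrp2, Slc34a1) had a median of 0 rpm per cell in every group except the 2 cells of 4 days of pool IM793, and a highest value of 1407 rpm in a cell. Most of the 317 index pairs were used in more than 1 pool, and 0 were repeated within a pool.

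Hspa1a and Hspa1b had the largest log2 ratios of the members in every preserved group but that of 6 h, where Dnajb1 was above them, and their promoters are close to identical. Hspa1b (ENSMUSG00000090877) lies at chr17:34956436-34959238 and Hspa1a (ENSMUSG00000091971) at chr17:34969190-34972156 of GRCm38, both on the minus strand and 9951 bases apart, and each has 1 exon. RefSeq gives a promoter for 7 of the 10 members on GRCm38.p6. The 250 bases in front of both transcription starts are shown because the genes differed alike. Capitals mark GAANNTTC, an inverted pair of heat shock element units.
Hspa1a, chr17:34972157-34972406, minus strand: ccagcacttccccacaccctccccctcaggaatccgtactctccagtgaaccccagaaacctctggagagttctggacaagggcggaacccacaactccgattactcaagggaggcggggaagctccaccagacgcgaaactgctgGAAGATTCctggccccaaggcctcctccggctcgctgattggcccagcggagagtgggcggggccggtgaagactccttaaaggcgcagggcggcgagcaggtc
Hspa1b, chr17:34959239-34959488, minus strand: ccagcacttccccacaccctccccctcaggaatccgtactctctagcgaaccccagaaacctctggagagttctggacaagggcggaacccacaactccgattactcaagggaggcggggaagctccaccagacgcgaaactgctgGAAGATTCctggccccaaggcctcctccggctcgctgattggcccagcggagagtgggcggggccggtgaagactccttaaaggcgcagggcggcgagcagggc
These windows were identical at 98.8% of 250 positions, differing at 3, and the element stood at the same distance from the start in both, from base -104 to base -97.

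The inverted pairs GAANNTTC and TTCNNGAA read the same on both strands. They were searched in the same 250-base window of all 32851 promoters of the table, of which 6.69% held the first and 7.17% the second. At least 1 of these pairs was found in front of 6 of the 7 members with an entry, in every such member but Dnajb1, while 12.8% of all promoters held either pair. A member was counted if any of its entries matched (1 of 3 for Dnaja1 and 1 of 2 for Hspd1), which the share of promoters does not allow for. A run of at least 3 alternating units, which contains both pairs, was present in 0.466% of all promoters and in front of Hspe1 and Hspd1, where overlapping matches make 4 units. Those genes stand head to head and share the element, which lies at chr1:55088053-55088082 and is given on the plus strand in front of Hspe1. Windows of 30 bases show the elements of the other members, with the units in capitals.
Hspe1, plus strand, bases -95 to -66: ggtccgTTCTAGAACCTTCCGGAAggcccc
Dnaja1, plus strand, bases -135 to -106: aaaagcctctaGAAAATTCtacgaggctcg
Hsph1, minus strand, bases -44 to -15: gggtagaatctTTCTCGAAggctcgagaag
A match of letters is a description of the sequence. Among the 7 members with an entry, Hspe1 and Hspd1 had the longest run of units. Whether these elements had a part in the differences between fresh and preserved cells was not tested.

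Levels were compared between genes per length of exon, over all annotated exons. The order is approximate, since genes differ in how much of their sequence occurs in other genes. Of its stretches of 75 bases, the trimmed read length, Hspa1a shared 61.7% with other genes. Hsp90aa1 shared 42.8%, Hspa8 33.05%, and Dnajb1 and Hsph1 0%. Over all 502 cells, the summed counts scaled to 1000000 gene reads (summed CPM) per kb of exon were 561 for Hsp90ab1, 500.1 for Hspa8 and 240.8 for Hsp90aa1, followed by 145.3 for Hspa1a, 99.1 for Hspa1b and 97.9 for Dnajb1. Hspe1 (48.4), Hspd1 (41.03) and Dnaja1 (37.99) were lower, and Hsph1 had the lowest level per kb, 10.6. Hsp90ab1 and Hspa8 were first and second in each of the 7 larger groups. The order below them changed with preservation. In fresh cells of pool IM834, Hspa1a (9.13 summed CPM per kb) and Hspa1b (3.53) were ninth and last of the 10 genes, and after 3 days Hspa1a (373) was the third, above Hsp90aa1 (272).

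**Figure D1:**
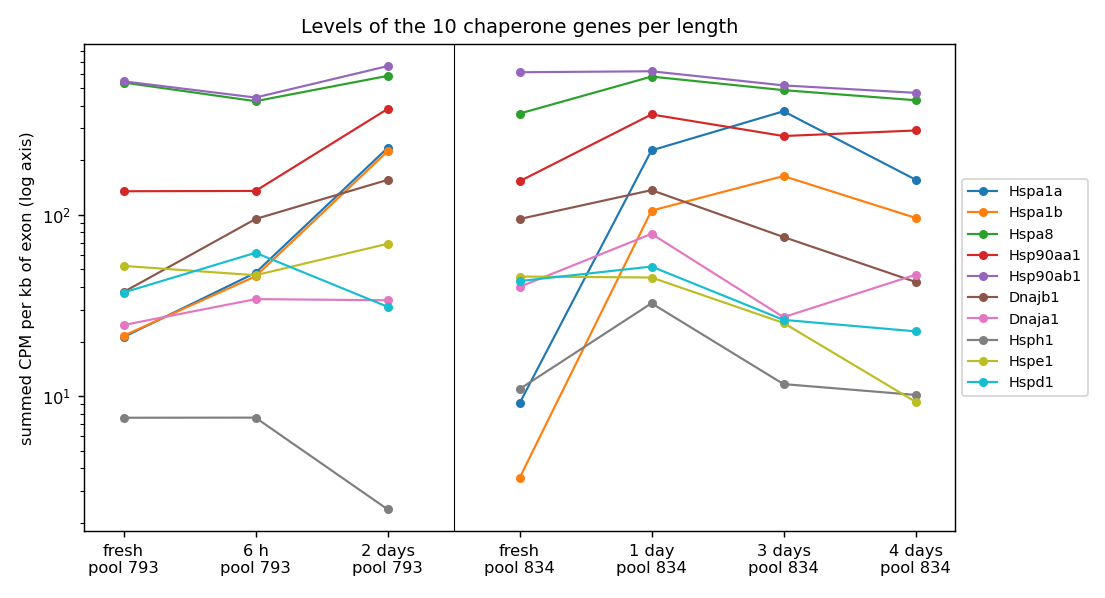
Summed CPM per kb of exon (log axis) of the 10 genes in the 7 larger groups, with pool IM793 left and pool IM834 right of the vertical line; each point is a group of cells. Hsp90ab1 and Hspa8 stay at the top, while Hspa1a climbs from 9.13 in fresh cells to 373 after 3 days in pool IM834.

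Summed levels of the inducible HSP70 pair were higher in preserved cells than in fresh cells of the same pool in each of the 5 comparisons, least so after 6 h. In pool IM834, Hspa1a had a summed level of 27.1 CPM in fresh cells (exact 95% Poisson interval 25.6 to 28.6), 673 after 1 day, 1107 after 3 days (1097 to 1116) and 465 after 4 days. Hspa1b had 9.90 CPM in the fresh cells, 296 after 1 day, 459 after 3 days and 270 after 4 days. In pool IM793, Hspa1a went from 62.9 CPM fresh to 142.2 after 6 h and 694 after 2 days, and Hspa1b from 60.4 to 128.5 and 628. Within each pool every preserved group stood above the fresh group, and the 6 h group was the preserved group closest to it. These intervals cover counting error only and not the difference between mice, and, with no molecular identifiers, reads do not count molecules even though the authors removed duplicates.

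The genes of the pair are summed below, because their transcripts share sequence and some reads fit both. Per cell, Hspa1a + Hspa1b ran from 0 through a median of 0 to 755 reads per 1000000 gene reads (rpm) in fresh cells of pool IM834. After 1 day the lowest, median and highest cell had 0, 273 and 9486 rpm, after 3 days 0, 50.9 and 12640 rpm, and after 4 days 0, 0 and 6980 rpm. In pool IM793 the median was 0 rpm in the fresh and the 6 h group and 0.44 rpm after 2 days, and the highest cell had 3143, 3079 and 11794 rpm. Cells with no read were present in each of these groups, so the groups overlapped at the low end, and the groups of 1, 2 and 3 days reached levels that no fresh cell had.

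Both the number of cells with the transcripts and the level within those cells were higher after preservation. At least 10 reads of the pair were found in 9.88% of fresh cells of pool IM834 (8 of 81, exact binomial 95% interval 4.36% to 18.5%). The share was 61.3% after 1 day (49.4% to 72.4%), 48.8% after 3 days (37.6% to 60.1%) and 21.1% after 4 days (6.05% to 45.6%). In pool IM793 the share was 16% fresh (8.55% to 26.3%), 32.9% after 6 h (22.5% to 44.6%) and 47.4% after 2 days (36.01% to 59.1%). The intervals of the 1-day, 2-day and 3-day groups lie above that of the fresh group of their pool, while those of the 6 h and 4-day groups overlap with it. They cover the counting of cells only, not differences between mice or in gate makeup, so neither separation nor overlap is a test of preservation. Among the cells with at least 10 reads, the median was 251.9 rpm in fresh cells of pool IM834 and 994, 2476 and 3044 rpm after 1, 3 and 4 days, the last from 4 cells. In pool IM793 this median was 563 rpm in fresh cells, 546 rpm after 6 h and 1698 rpm after 2 days. More cells carried the transcripts after 6 h, with a like amount in each, and after 2 days both were higher. The pair had a higher rpm than Hspa8 in 0 of 81 and 1 of 75 fresh cells, in 12 of 75 cells after 1 day, 20 of 78 after 2 days and 21 of 82 after 3 days.

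**Figure D2:**
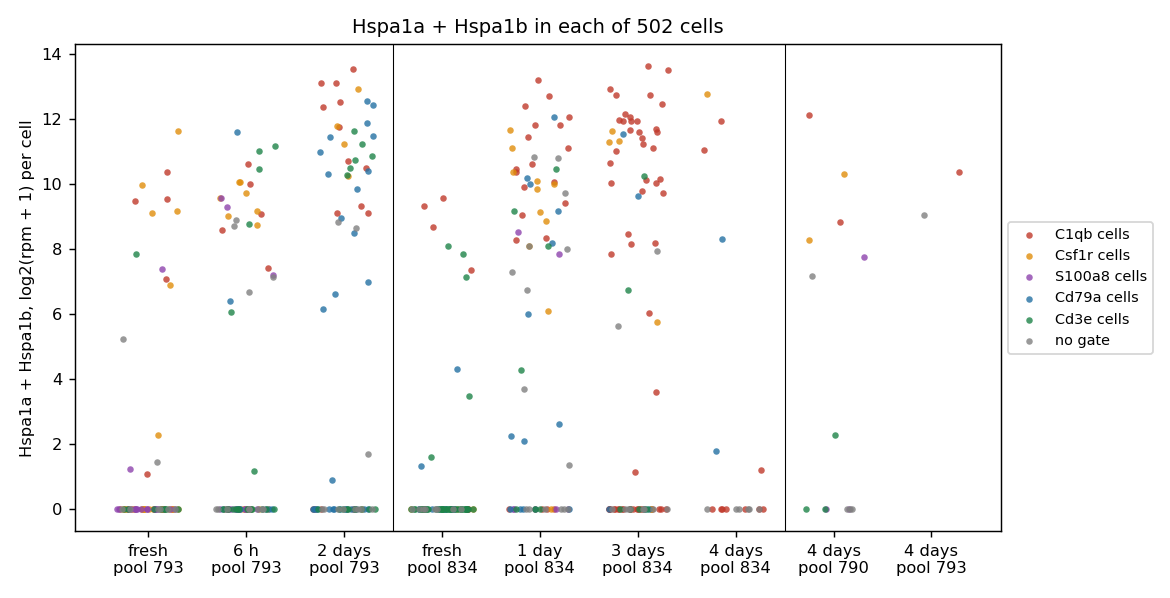
Hspa1a + Hspa1b in each of the 502 cells as log2(rpm + 1), by timepoint and library pool, coloured by gate, with horizontal scatter added for legibility. Fresh cells sit mostly at 0 and reach 755 rpm in pool IM834 and 3143 rpm in pool IM793, where the 6 h cells reach 3079 rpm. A larger share of cells lies above 0 in the preserved groups, up to 12640 rpm after 3 days.

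Log2 ratios of summed CPM, preserved over fresh of the same pool, put these differences beside those of all genes. A gene was counted as differing at a log2 ratio of at least 1, that is 2-fold, among genes with reads in 10% or more of the cells compared. Hspa1a + Hspa1b had a log2 ratio of 1.14 after 6 h and 3.42 after 2 days in pool IM793, and of 4.71, 5.40 and 4.31 after 1, 3 and 4 days in pool IM834. After 3 days Hspa1b and Hspa1a held ranks 9 and 12 from the top among 5548 genes, after 1 day ranks 18 and 23 among 6165, and after 2 days ranks 85 and 79 among 6869. After 6 h they held ranks 997 and 850 among 7315. The fresh cells of pool IM793 exceeded those of pool IM834 by 1.74 on the same scale, which is more than the 6 h difference and less than the other 4 differences. After 4 days 1 cell of 19 gave 51.98% of the reads of the pair, and without the top cell of each group the log2 ratio was 3.98.

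Of the 10 members, 3 were at least 2-fold higher and 0 at least 2-fold lower after 6 h, where 15.9% of all genes were that much higher and 11.2% that much lower. After 2 days 4 members were higher and 1 lower, against 21.3% and 17.6% of all genes. After 1 day 4 members were higher and 0 lower, against 15.8% and 18.3%, and after 3 days 2 were higher and 0 lower, against 15.8% and 19.8%. By the difference of means of log2(rpm + 1), 3 members (Hsp90ab1, Dnajb1 and Dnaja1) were lower after 3 days, in place of 0. The shares of all genes here are by summed CPM, and none was computed by that difference. After 4 days 2 members were higher and 2 lower, where 16.6% of all genes were higher and 46.5% lower. Between the fresh groups 2 members were higher and 1 lower in pool IM793, against 24.8% and 21.7% of all genes, and 0 and 0 by the difference of means of log2(rpm + 1). The median log2 ratio of the 10 members was 0.24, 0.43, 0.83, -0.07 and 0.06 after 6 h, 2, 1, 3 and 4 days, beside 0.16, 0.16, -0.13, -0.13 and -0.77 over all genes tested. Hspa1a and Hspa1b were the only members past 2-fold in all 5 comparisons, although with TMM sizes Hspa1b was at 0.91 after 6 h, and the other 8 members stood past it in 0 to 3 of them.

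**Figure D3:**
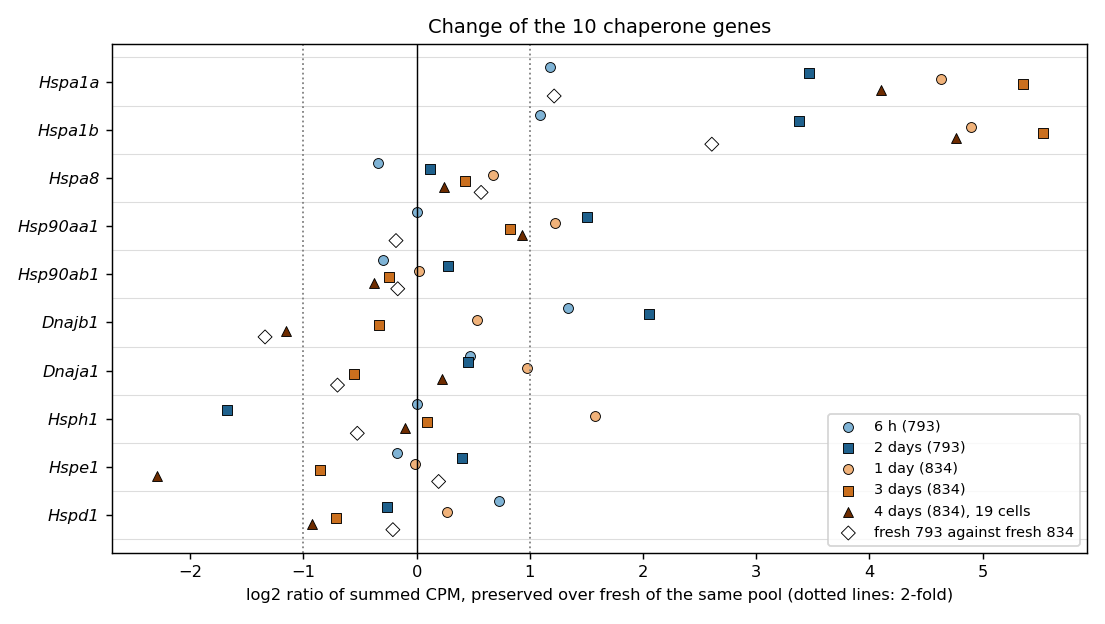
Log2 ratio of summed CPM of the 10 genes (rows) for the 5 preserved groups against fresh cells of the same pool (filled symbols) and for the fresh groups against each other (open diamonds); dotted lines mark 2-fold. Hspa1a and Hspa1b lie to the right in all 5 comparisons, up to 5.35 and 5.54 after 3 days, and the other members lie on both sides of 0, between -2.30 and 2.06.

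Among the constitutive HSP70 and HSP90 genes, summed levels were high and stayed within 2-fold. Hspa8 had 2312 CPM in fresh cells, 1824 after 6 h and 2515 after 2 days in pool IM793. In pool IM834 it had 1558 CPM fresh, 2493 after 1 day, 2099 after 3 days and 1846 after 4 days. Its log2 ratios lay between -0.34 and 0.68, and the fresh groups differed by 0.57. Hsp90ab1 lay between 1332 and 1985 CPM in all 7 of these groups, with log2 ratios from -0.38 to 0.28. Neither gene was past 2-fold in summed CPM. The difference of means of log2(rpm + 1), which weighs each cell alike, was past it for Hsp90ab1 after 3 days (-1.30) and 4 days (-2.58) and for Hspa8 after 6 h (-1.08). Cells with at least 10 reads of Hsp90ab1 were 87.7% in the fresh cells of pool IM834, 79.3% after 3 days and 57.9% after 4 days. Weighted to the gate makeup of the fresh cells, the log2 ratio of Hspa8 was 1.02 after 1 day and 1.199 after 3 days.

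Hsp90aa1, the inducible HSP90 gene, had a higher summed level after 1 day or more. In pool IM793 it had 531 CPM fresh, 533 after 6 h and 1509 after 2 days, a log2 ratio of 0.00 and then 1.51. After 6 h the difference of means of log2(rpm + 1) was -0.83, with at least 10 reads in 59.2% of the cells beside 73.3% when fresh. In pool IM834 it had 603 CPM fresh, 1409 after 1 day, 1071 after 3 days and 1149 after 4 days, log2 ratios of 1.23, 0.83 and 0.93. The fresh groups differed by -0.18, less than each of these 4 later differences. Its per-cell median was 285 and 485 rpm in the fresh groups of pools IM793 and IM834, 201.9 rpm after 6 h, 1009 rpm after 1 day, 950 rpm after 2 days and 827 rpm after 3 days, but 428.1 rpm after 4 days, below the 485 rpm of the fresh cells of its pool. After 4 days 57.9% of the cells had at least 10 reads of it, beside 76.5% of the fresh cells. Weighted to the gate makeup of the fresh cells, the 2-day log2 ratio was 0.73 in place of 1.51. Without the C1qb cells the 1-day log2 ratio was 0.96. After 4 days the difference of means of log2(rpm + 1) was -1.22, the other way from the summed level.

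The HSP40 genes did not move alike. Dnajb1, the main inducible HSP40 partner of Hspa1a, had 120 CPM fresh, 304 after 6 h and 499.9 after 2 days in pool IM793, log2 ratios of 1.34 and 2.06. In pool IM834 it had 304 CPM already in the fresh cells, 439 after 1 day and 136.8 after 4 days, with log2 ratios of 0.53, -0.33 and -1.15 after 1, 3 and 4 days. Weighted to the gate makeup of the fresh cells, the 1-day and 3-day values were 1.51 and 1.13, past 2-fold and the latter turned in sign. The difference of means of log2(rpm + 1) was 1.35 after 1 day and -1.03 after 3 days. The fresh groups differed by -1.34 for this gene, as much as the 6 h difference. At 6 h, cells with at least 10 reads of Dnajb1 were 27 of 76, beside 26 of 75 in the fresh cells, 1 cell gave 20.7% of the reads, and the difference of means of log2(rpm + 1) was 0.20. After 2 days they were 37 of 78. After 4 days 1 cell gave 77.6% of the reads, and without the top cell of each group the log2 ratio was -2.90. Dnaja1 had its highest level after 1 day, 678 CPM beside 346 CPM in the fresh cells of pool IM834, a log2 ratio of 0.97, and its other log2 ratios lay between -0.55 and 0.48. The difference of means of log2(rpm + 1) was 1.55 after 1 day, -1.83 after 3 days and -1.58 after 4 days. After 4 days 1 cell gave 54.8% of its reads, and without the top cell of each group the log2 ratio was -0.72 in place of 0.22.

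Hsph1 was read in the fewest cells of the members, and its sums rested on few of them. At least 10 reads were present in 11 of 75 and 12 of 81 fresh cells, in 19 of 75 cells after 1 day and in 8 of 78 after 2 days. Its log2 ratio was 1.57 after 1 day, with 41.3% of the reads from 1 cell and 1.22 without the top cell of each group. After 2 days it was -1.68, from 55.3 CPM fresh to 17.3 CPM. It was -0.11 after 4 days with 99.7% of the reads in 1 cell, and -7.34 without that cell and the top fresh cell.

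The mitochondrial chaperonin genes stayed within 2-fold in summed CPM up to 3 days. Hspd1 had log2 ratios between -0.92 and 0.73, and Hspe1 between -0.85 and 0.41 up to 3 days. After 3 days 1 cell gave 31.6% of the Hspd1 reads, and without the top cell of each group its log2 ratio was -1.06 in place of -0.71, and after 4 days -1.63 in place of -0.92. Weighted to the gate makeup of the fresh cells, it was 1.24 in place of 0.27 after 1 day, -2.47 in place of -0.26 after 2 days and -1.84 after 4 days. After 4 days Hspe1 had 13.7 CPM beside 67.4 CPM in the fresh cells of pool IM834, a log2 ratio of -2.30, with reads in 3 of 19 cells beside 40 of 81. In that group the median over all genes was -0.77 and the median number of genes per cell was 1130, beside 1843 in the fresh cells. The gene models of Hspd1 (chr1:55077835-55088243, minus strand) and Hspe1 (chr1:55088132-55091307, plus strand) share the exon bases between chr1:55088132 and 55088243, and reads were counted without regard to strand, so reads there cannot be told apart.

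The groups differed in the cells they held, so levels were also taken by gate. A cell went to the gene with the highest count among Cd3e (T cell receptor complex), Cd79a (B cell receptor complex), C1qb (complement C1q, made by tissue macrophages) and S100a8 (made by neutrophils) if it had at least 10 reads of it, and otherwise to Csf1r (a receptor of macrophages and monocytes) by the same minimum. This gave 76 Cd79a, 72 Csf1r and 47 S100a8 cells, 75 cells in no gate, and 21.1% of the 502 cells as Cd3e and 25.1% as C1qb cells. Markers not used for the gates mostly followed the gates other than Csf1r: at least 10 reads of Cd3d were present in 83.96% of Cd3e cells, Cd79b in 98.7% of Cd79a cells, C1qa in 96.03% of C1qb cells and S100a9 in 85.1% of S100a8 cells. The weakest were Cd247 in 55.7% of Cd3e cells, Cd22 in 56.6% of Cd79a cells, Mrc1 in 67.5% of C1qb cells and G0s2 in 44.7% of S100a8 cells. Some stood outside their gate, with Cd3d in 23.4% of S100a8 cells, Cd79b in 14.3% of C1qb cells and Apoe, a C1qb marker, in 48.6% of Csf1r cells. Among the Csf1r markers, Cd68 was present in 84.7% of Csf1r cells, but also in 84.9% of C1qb cells. Cd14 was present in 63.9% of Csf1r cells beside 77.8% of C1qb and 89.4% of S100a8 cells, and Cx3cr1 in 44.4% beside 80.2% of C1qb cells. Only Itgax, in 27.8%, was most frequent in Csf1r cells. In 4 cells more than 1 of the first 4 gate genes reached the minimum, and doublets were not removed.

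The inducible HSP70 pair was highest in C1qb cells. Over all groups it had 1774 summed CPM in C1qb cells, 670 in Csf1r cells, 665 in Cd79a cells, 256.1 in Cd3e cells and 46.6 in S100a8 cells, and at least 10 reads were present in 61.1%, 44.4%, 34.2%, 19.8% and 12.8% of them. Csf1r and Cd79a cells can hardly be ordered by summed CPM. The other steps exceed counting error, but this does not cover the spread between cells or mice, and the order was not tested. The top cell gave 8.505% of the reads of the pair in C1qb cells, 20.77% in Csf1r cells and 17.13% in Cd79a cells. In Cd3e and S100a8 cells it gave 14.21% and 54.91%. C1qb cells were ahead already when fresh, with 249.2 CPM and 4 of 8 cells in pool IM834 and 432 CPM and 4 of 8 cells in pool IM793, where Cd3e cells had 15.4 and 16.2 CPM. C1qb cells were also first among the gates with at least 10 cells in the 1-day and the 2-day group, while 5 Csf1r cells after 2 days had 3620 CPM beside 2906 CPM in C1qb cells. The other members did not follow this order. Hspa8, Hsp90ab1 and Hsp90aa1 were highest in Cd79a cells (2634, 2182 and 1441 CPM) and each was lowest in S100a8 cells (1002, 422 and 307 CPM), in which all 10 members added up to 2198 CPM beside 5954 to 8250 CPM in the other gates and cells of no gate. These sums pool groups of unequal level, and 37 of the 47 S100a8 cells are fresh and 6 h cells of pool IM793. Within the fresh group of that pool S100a8 cells had 1362 and 649.7 CPM of Hspa8 and Hsp90ab1, beside 2539 and 1714 CPM in Csf1r cells. Among gates with at least 10 cells, Cd79a cells were first for Hspa8 and Hsp90aa1 after 1 and 2 days, but Cd3e cells were above them for Hspa8 in the fresh cells of pool IM834 (1786 beside 1167 CPM) and for Hsp90ab1 in these cells (2197 beside 1872 CPM) and after 2 days (2385 beside 2307 CPM).

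Within gates, summed levels of the pair were higher in preserved cells than in fresh cells of the same pool, in several gates through 1 cell. Only 3 comparisons had at least 10 cells of a gate in both groups. In Csf1r cells the level went from 160 CPM in 29 fresh cells to 393 CPM in 14 cells after 6 h, a log2 ratio of 1.29, and in S100a8 cells from 8.39 CPM in 21 cells to 73.1 CPM in 16 cells, a log2 ratio of 3.12. In these S100a8 cells 1 cell gave 87.95% of the reads, and without it the 6 h level was 9.81 CPM, a log2 ratio of 0.23, while in Csf1r cells the log2 ratio without the top 6 h cell was 1.11. In Cd79a cells it went from 1.29 CPM in 17 fresh cells, 12 reads in all, to 677 CPM in 14 cells after 1 day, a log2 ratio of 9.04, and cells with at least 10 reads were 1 of 17 and 6 of 14. Without the top 1-day cell it was 7.88. With a minimum of 5 cells, chosen after seeing the data, there were 14 comparisons, which share only 7 groups of fresh cells and are not independent. The pair was higher in the preserved cells in all 14 and at least 2-fold higher in 13, with a median log2 ratio of 3.46 and the lowest, 0.62, in C1qb cells after 6 h. Without the preserved cell with the most reads, an alternative chosen after seeing the data, the pair was higher in 12 of the 14 and at least 2-fold higher in 10, with a median of 2.89. It was then at -0.14 in Cd3e cells after 3 days and at -0.51 in C1qb cells after 4 days, where that cell gave 94.6% and 78.1% of the reads, and at 0.12 in C1qb cells after 6 h. The share of all genes with a ratio at or above that of the pair ran from 0.221% to 32.2% with a median of 6.22%, and it was 18.3% to 32.2% in 4 of the 5 comparisons of C1qb cells. In C1qb cells of pool IM834 the pair had 249.2 CPM in 8 fresh cells, 2018 in 22 cells after 1 day, 2052 in 54 cells after 3 days and 693 in 10 cells after 4 days. The share of C1qb cells with at least 10 reads was 4 of 8 fresh, 17 of 22, 31 of 54 and 2 of 10, so after 4 days the summed level was higher with fewer such cells. In Cd3e cells of pool IM793 it had 16.2 CPM in 9 fresh cells, 287.2 in 20 cells after 6 h and 776 in 16 cells after 2 days. In the same 14 comparisons Dnajb1 was at least 2-fold higher in 10 and lower in 0, Hsp90aa1 in 6 and 1, Hspa8 in 3 and 1, and Hsp90ab1 in 0 and 2. Dnaja1 was higher in 3 and lower in 2, Hspe1 in 2 and 5 and Hspd1 in 3 and 6, and Hsph1 in 7 and 5 of 13. Over all genes 18.8% to 37.1% were at least 2-fold higher and 18.8% to 52.6% at least 2-fold lower in these comparisons.

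**Figure D4:**
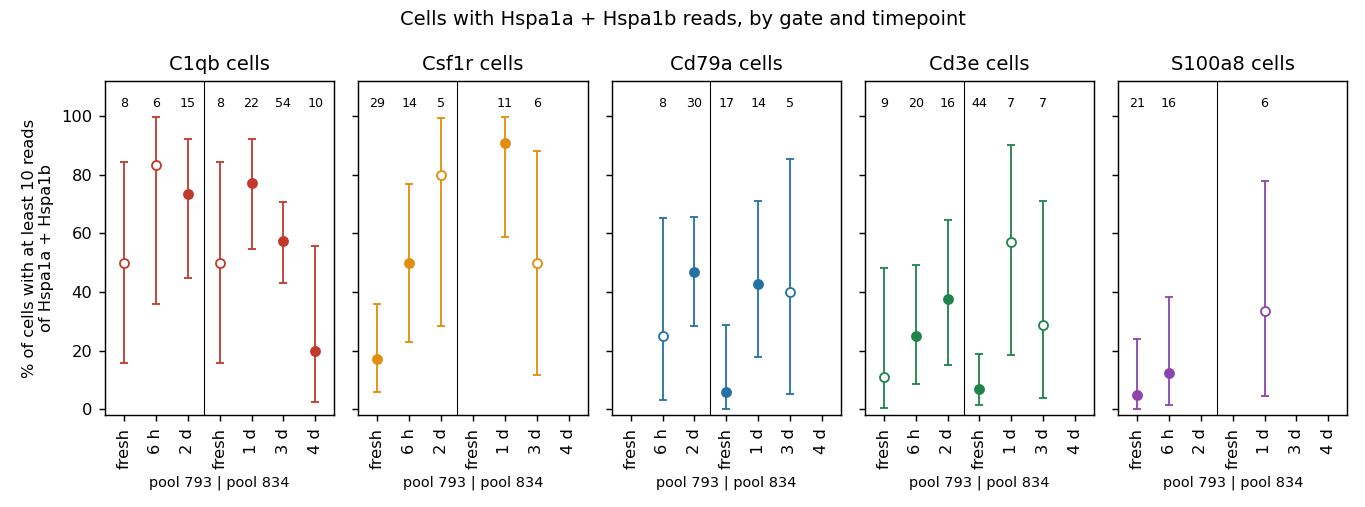
Percentage of cells with at least 10 reads of Hspa1a + Hspa1b by gate (panels) and group (pool IM793 left and pool IM834 right of each line), with exact binomial 95% intervals; numbers at the top are cells, open symbols mark gates with 5 to 9 cells, and gates with fewer cells are not drawn. C1qb cells start at 4 of 8 when fresh, and Cd79a cells go from 1 of 17 fresh to 6 of 14 after 1 day.

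The share of C1qb cells was higher in the preserved groups of pool IM834 and after 2 days in pool IM793, but not after 6 h. In pool IM793 it was 10.7% fresh, 7.89% after 6 h and 19.2% after 2 days. It was 9.88% in the fresh cells of pool IM834, 29.3% after 1 day, 65.9% after 3 days and 52.6% after 4 days, while Cd3e cells went from 54.3% to 9.33% and 8.54% and were 0 of 19 cells after 4 days, which by the limit of 3 cells that a count of 0 allows is a share of up to 15.8%. Weighted to the gate makeup of the fresh cells over gates with at least 5 cells in both groups, an alternative chosen after seeing the data, the log2 ratio of the pair was 4.03 in place of 4.71 after 1 day, 3.82 in place of 5.40 after 3 days and 1.31 in place of 4.31 after 4 days. The 4-day group has no Cd3e cell, so its weighted value rests on C1qb cells and cells of no gate alone, 16 cells beside 16 of the 81 fresh cells. In pool IM793 it was within 0.5 of the unweighted value, and between the fresh groups it was 0.63 in place of 1.74. The 2-day value left out the Cd79a and S100a8 cells and rests on 47 of 78 cells beside 54 of 75 fresh cells. In the fresh and 2-day cells of pool IM793, Cd79a cells were 0% and 38.5%, S100a8 cells 28% and 1.28%, and Csf1r cells 38.7% and 6.41%. Without C1qb cells the log2 ratio of the pair in pool IM834 was 5.83, 5.77 and 6.45 after 1, 3 and 4 days, the last from 9 cells. Weighting to the gate makeup put 8 members at least 2-fold higher after 1 day, in place of 4, and 4 in place of 2 after 3 days. The share of all genes past 2-fold was not computed under this weighting.

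Genes of the dissociation response moved with some of these groups. Of 9 immediate early genes (Jun, Junb, Fos, Fosb, Zfp36, Dusp1, Egr1, Ier2 and Atf3), 8 were at least 2-fold higher after 1 day with a median log2 ratio of 2.18, 5 after 3 days (1.30), 2 after 2 days (0.63) and 1 after 6 h (0.45). After 4 days 2 were higher and 4 lower, with a median of -0.87 beside -0.77 over all genes. Of all genes 15.8% were that much higher after 1 and after 3 days, 21.3% after 2 days and 15.9% after 6 h, and 46.5% were lower after 4 days. Between the fresh groups 4 were higher in pool IM793, with a median of 0.81. Of all genes 24.8% were that much higher there, with a median of -0.03. The summed median per cell of the immediate early genes was 16588 rpm after 1 day, beside 4221 rpm in the fresh cells of pool IM834 and 5532 rpm after 3 days, when the pair was highest by summed CPM. By the median cell and by the share of cells with at least 10 reads, the pair too was highest after 1 day. Fosb, for example, had 44.03 CPM in the fresh cells, 542 after 1 day and 154.7 after 3 days, and Jun had 121.2, 1248 and 1237 CPM. Their part in the difference of the pair was not tested.

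Reads were split between Hspa1a and Hspa1b in a proportion that differed between library pools. Hspa1a took 52.3% of the reads of the pair in pool IM793, 51.3% in pool IM790 and 69.9% in pool IM834. By group it was 51%, 52.5% and 52.5% in the fresh, 6 h and 2-day cells of pool IM793, and 73.2%, 69.5%, 70.7% and 63.3% in the fresh, 1-day, 3-day and 4-day cells of pool IM834. The 2 cells of 4 days of pool IM793 had 43.7%, and the 4-day group was the lowest of both pools. Both genes had at least 10 reads in 74, 87 and 6 cells of pools IM793, IM834 and IM790, only Hspa1a in 8 and only Hspa1b in 4. Over all 502 cells the Pearson correlation of their log2(rpm + 1), centred within group and gate, was 0.97. These points share library and depth, and the transcripts share sequence. Of the 75-base windows of the Hspa1a transcript, 75 bases being the length to which reads were trimmed, 52.7% occur also in Hspa1b, and 55.8% of those of Hspa1b in Hspa1a. The single levels of the genes are therefore uncertain, and their sum is too low if reads that fit both were left out. How reads that fit both were treated is not given in the sources used here.

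**Figure D5:**
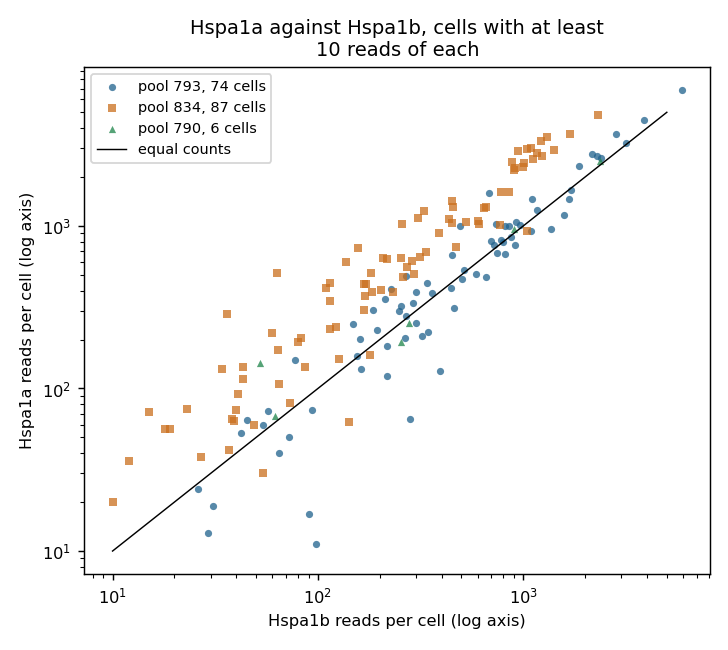
Reads of Hspa1a against reads of Hspa1b (log axes) in the cells with at least 10 reads of each, by library pool, with a line of equal counts. Cells of pools IM793 (74) and IM790 (6) scatter about the line, and most of the 87 cells of pool IM834 lie above it, at 69.9% of the reads from Hspa1a.

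Other members kept looser company from cell to cell. Centred in the same way, the correlation of Hspa1a with Hspa8 was 0.26, with Hsp90aa1 0.22, with Dnajb1 0.21 and with Hspd1 0.08, and that of Hspa8 with Hsp90ab1 0.34. Genes detected per cell correlated 0.30 with the pair, so these weak values are given as a description only.

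The other chaperone families are given by their counts. Cytosolic HSP70 and HSP40 partners had 4 of 11 tested genes at least 2-fold higher and 1 lower after 2 days, with Dnajb4 at a log2 ratio of 2.40 and Dnajc7 at 1.93, beside 21.3% and 17.6% of all genes, but 0 of 9 higher and 2 lower after 1 day, 0 of 10 higher and 1 lower after 3 days, and 1 of 9 higher and 6 lower after 4 days. After 6 h 1 of 11 was higher and 1 lower. Of all genes 15.8% were higher after 1 and after 3 days, 16.6% after 4 days and 15.9% after 6 h, and 18.3%, 19.8%, 46.5% and 11.2% were lower. Those shares are also the background of the families that follow. Dnaja2, an HSP40 relative of Dnaja1, had log2 ratios of 1.21 and 1.49 after 6 h and 2 days in pool IM793 and of -1.25, -1.16 and -1.45 after 1, 3 and 4 days in pool IM834. Of the 7 HSP90 cochaperones tested, 1, 1, 0, 0 and 0 were higher after 6 h, 2, 1, 3 and 4 days and 0, 0, 1, 0 and 2 lower, with Ppid at 1.31 after 6 h and 1.22 after 2 days. The fresh cells of pool IM793 were themselves lower than those of pool IM834 in Dnajc7 (-1.85), Dnaja2 (-1.48) and Ppid (-1.33), by about as much as the 2-day cells of that pool were higher. The 8 subunits of the CCT chaperonin, which folds actin and tubulin, had medians between -0.19 and -0.09 after 6 h, 2 and 3 days with no subunit past 2-fold. After 1 day 5 of 8 were at least 2-fold lower, with a median of -1.08, and Cct6a (-1.27) and Cct2 (-1.24) were the lowest. After 4 days 5 of 8 were lower, with a median of -1.63. Of all genes 18.3% were that much lower after 1 day and 46.5% after 4 days, and Cd3e cells made up 54.3% of the fresh cells and 9.33% of the 1-day cells. Chaperones of the endoplasmic reticulum had medians between -0.55 and 0.38, with 0 of 10 higher and 2 lower after 6 h and after 2 days, 1 of 9 higher and 0 lower after 1 day, 1 of 9 higher and 1 lower after 3 days, and 1 of 10 higher and 3 lower after 4 days. Hspa5, their HSP70, had a log2 ratio of -1.07 after 6 h. Hyou1, another HSP70 relative of that compartment, had 49.3 CPM in the fresh cells of pool IM793, with at least 10 reads in 16% of them, 4.16 CPM after 6 h and 0.029 CPM after 2 days, while Canx was at least 2-fold higher after 1, 3 and 4 days and lower after 2 days. Mitochondrial chaperones other than the members had 1, 2 and 2 of 5 higher and 0 lower after 6 h, 2 and 3 days, with medians of 0.40, 0.87 and 0.39, and 0 of 6 higher and 3 lower after 1 day. After 4 days 4 of 6 were higher and 0 lower, where 16.6% of all genes were higher, among them Trap1, the mitochondrial HSP90, at 2.37 from 10.53% of 19 cells with at least 10 reads. The 3 small heat shock proteins were read in too few cells to be counted. Hsf1, the gene of heat shock factor 1, had 16.8 CPM in the fresh cells, 54.5 after 6 h and 84.2 after 2 days in pool IM793, and 61.9 CPM fresh, 48.7 after 1 day and 49.9 after 3 days in pool IM834, with at least 10 reads in 8% to 17.3% of the cells of these groups. The fresh cells of pool IM793 had a log2 ratio of -1.88 to those of pool IM834 for Hsf1, and no read of it was found in the 19 cells of 4 days of pool IM834, which allows up to 0.361 CPM.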

How the data were processed

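Per the labels and the study's methods, single cells were processed with SmartSeq2 and Nextera XT, and the authors trimmed reads to 75 bases, removed duplicates, aligned with STAR to GRCm38 and counted reads per gene with HTSeq without regard to strand. No version of these tools is given in the sources used here. Read lengths before trimming were not the same in all runs, and the sources do not say which pool had which. What was deposited are unnormalized counts of reads for each gene in 502 cells. The 97 rows that name no gene (ERCC spike-ins and a vector, 0.14% of all counts) were left out, which left 46603 gene rows.

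Counts were divided by each cell's total on genes (rpm), or summed over the cells of a group and divided by the summed total (summed CPM). A log2 ratio compares summed CPM, with sums under 3 set to 3, and 2-fold was the limit for a difference. Since each cell is a sample and no label names an animal, no test was made. Intervals are exact Poisson (sums) or exact binomial (shares) at the 95% level and cover counting error only. The members and gene lists were chosen with earlier results of these data known. Genes named are the 10 members, genes of the lists, pseudogene rows of members, and the 5 genes most correlated with each of the HSP70 and HSP90 pairs over cells. Exon lengths and gene positions are from GENCODE M21 (GRCm38) and promoters from RefSeq (GRCm38.p6). The ratios were tested on simulated data. The identity of the Hspa1a and Hspa1b proteins, which had been planned, was not analysed here, and shared 75-base windows of the transcripts were counted in its place.

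Alternatives were TMM (edgeR 4.0.16), size factors (DESeq2 1.42.0), means over cells, another total, other gates, shallow cells and single cells left out, and all fresh cells as control. Python 3.11.15 with numpy 2.4.6, pandas 2.3.3 and scipy 1.17.1 was used.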

Additional observations from a re-analysis of the deposited data

Results flagged for a closer look

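The 4-day cells outside pool IM834 entered no comparison, because 14 of them belong to pool IM790, which holds no fresh cells, and the other 2 to pool IM793. Hspa1a + Hspa1b had 529 summed CPM in the 14 cells of pool IM790 and 955 summed CPM in the 2 cells of pool IM793, above the 123.2 and 36.98 CPM of the fresh groups of pools IM793 and IM834. At least 10 reads were present in 6 of the 14 cells and in both cells of pool IM793. In pool IM790 a single cell gave 60.7% of the reads of the pair. These values are above the level of the fresh cells in data that the report does not compare, and the difference was not tested.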

How the results depend on the processing

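Each timepoint is 1 sample, and no alternative here can replace replicates. Hspa1a + Hspa1b kept a log2 ratio above 0 in all 5 preserved comparisons of whole groups under every alternative listed here. After 6 h the pair lay near the limit, at 1.14, and fell under it with TMM (0.96, and 0.91 for Hspa1b alone), without Cd3e cells (0.95) and without S100a8 cells (0.97), both removals a choice made after seeing the data. A value was held to have moved beyond a tolerance of 0.5 on the log2 scale, and the cause of these moves was not tested. With the difference of means of log2(rpm + 1) in place of summed CPM, the pair moved to 1.65 after 6 h, 5.23 after 1 day, 4.602 after 3 days, 1.63 after 4 days and 0.61 between the fresh groups, and the median of the 10 members to -0.63 after 3 days and -1.08 after 4 days. With all fresh cells as control the pair moved to 1.72, 4.00, 3.56, 4.25 and 3.16 after 6 h, 2, 1, 3 and 4 days. Without the cell with the most reads of each gene the median of the members after 4 days was -0.68. The gate makeup and the removal of C1qb cells were chosen after seeing the data. With the gate makeup of the fresh group the pair moved to 4.03, 3.82 and 1.31 after 1, 3 and 4 days and to 0.63 between the fresh groups, and the median of the members to 1.34, 0.89 and -0.78 after 1, 3 and 4 days. Without C1qb cells the pair moved to 5.83 after 1 day, 6.45 after 4 days and 3.02 between the fresh groups, and the median of the members to 0.76 and 0.61 after 3 and 4 days. In S100a8 cells after 6 h the ratio of the pair was 2.02 with a gate of 1 read, and in Cd79a cells after 1 day it was 10.9 where exactly 1 gate gene was required. Without the preserved cell with the most reads, chosen after seeing the data, the ratios were 0.23 in S100a8 cells after 6 h and 7.88 in Cd79a cells after 1 day. With a gate of 1 read, 2 in place of 3 gate comparisons with at least 10 cells were past 2-fold. The number of members at least 2-fold lower after 4 days ran from 1 (DESeq2 size factors, all fresh cells) to 5 (means of log2 values, gate makeup), beside 2. By summed CPM 46.5% of all genes were that much lower in this comparison. With means of log2 values the number of lower members was 3 after 3 days in place of 0, 1 after 6 h in place of 0 and 0 after 2 days and between the fresh groups in place of 1, and without the top cells it was 1 after 3 days. Of the members at least 2-fold higher, 8 in place of 4 after 1 day and 4 in place of 2 after 3 days were counted with the gate makeup of the fresh group. The share of all genes past 2-fold was not computed under these settings, so the member counts have no background here. Thinning each cell to 100000 counts, which left out 8 cells, changed no share of cells with a read of the pair beyond its counting interval, and in cells of at least 100000 counts the correlation of Hspa1a and Hspa1b stayed at its value within 0.05. No paired analysis was possible because the cells carry numbers in accession order only and no test was made.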

Other observations

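The genes whose levels over cells were most like those of the HSP90 pair, Hsp90aa1 + Hsp90ab1, included copies of chaperone genes. Among 6531 genes read in at least 10% of the 502 cells and centred within group and gate, Gm12346 (r = 0.49) and Gm5844 (r = 0.40) led, followed by Ppia (0.39), Gm26825 (0.38) and Eef1a1 (0.37), where the median gene had 0.08. Gm12346 and Gm5844 share 36.2% and 22.1% of the 75-base windows of the Hsp90aa1 transcripts, and Gm26825 shares 29.7% of those of Hspa8. The counts of these copies came to 1.69% and 0.51% of the Hsp90aa1 counts and to 6.48% of the Hspa8 counts. Another copy, Gm15459, shares 30.2% of the Hspa8 windows and had 5.01% of its count. The row Hspd1.ps3 held 726 reads, 1.93% of the Hspd1 count, and the Hspe1 and Dnaja1 pseudogene rows held 23 reads at most. Neither Dnajb1 nor Hsph1 shares a 75-base window with another gene of the annotation.

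The genes most like Hspa1a + Hspa1b over cells were Malat1 and Gm26917 (both r = 0.34), Ccl3, Junb and Egr1 (0.29 each), where the median gene had 0.05. Malat1 is a nuclear noncoding RNA, Ccl3 a chemokine of activated macrophages, and Junb and Egr1 are immediate early genes. The summed immediate early genes had 0.34 and the genes detected per cell 0.30. These are weak correlations over cells of shared libraries, given with no test.

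Over all 502 cells, 299 had no read of it, 23 had 1 to 9 reads and 180 had at least 10, and 95 cells (18.9%) were above 1000 rpm. None of the fresh cells of pool IM834 and 2 of the 75 of pool IM793 were above 1000 rpm, beside 8 of 76 after 6 h, 23 of 75 after 1 day, 26 of 78 after 2 days and 30 of 82 after 3 days. Cells with at least 10 reads of the pair had a higher median total than the other cells over all groups (726936 beside 671125 reads) and in 5 of the 7 larger groups, for example 576344 beside 459317 after 3 days, and a lower one after 2 days (869801 beside 952211) and after 4 days in pool IM834.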
